A study of Mus musculus with 4 samples.

Results

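Vascular smooth muscle cells were picked out of 2 droplet single-cell RNA libraries of sorted mouse heart cells. There were 164 of them among 4263 kept cells 7 days after ligation and 95 among 2786 kept cells of undamaged hearts, 259 of 7049 in all. The other libraries of the series, sorted on a Hic1-citrine or a PDGFRa H2BGFP reporter, brought the kept cells to 30454 and entered only as context. A kept cell had at least 500 genes, at least 1000 UMIs (unique molecular identifiers, which count captured RNA molecules) and at most 10% mitochondrial UMIs. A smooth muscle cell had at least 1 UMI of Myh11, at least 3 of Acta2, Tagln, Mylk, Cnn1 and Lmod1, at most 1 of the pericyte genes Kcnj8, Vtn, Colec11 and Abcc9, and no UMI of Pdgfra. The cells were thus chosen by the measured UMIs of these 11 genes, whose levels are given as descriptions.

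Both groups were tdTomato+ cells of Hic1 CreERT2 tdTomato mice on a C57BL/6 background. In these mice a Cre recombinase made from the Hic1 gene becomes active when its inducing drug is given, and the cells in which it acts, with their progeny, keep a red fluorescent label. The first group of hearts was taken 7 days after ligation of the left anterior descending (LAD) coronary artery, a model of myocardial infarction, and the second was undamaged. The series asks how heterogeneous cardiac mesenchymal progenitors are. A group is a single library of 3 pooled hearts, so no difference between the groups could be set against a spread between animals. Intervals cover counting error only, and no test was made. The sort kept labelled cells only, so smooth muscle without the label was not seen.

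Smooth muscle cells wrap arteries, arterioles and veins and set their bore. Calcium entering the cell or released from the sarcoplasmic reticulum activates myosin light chain kinase, and smooth muscle myosin then pulls on actin filaments. Nitric oxide from the endothelium acts through guanylate cyclase and cyclic GMP to relax them. The contractile genes are driven by serum response factor with its coactivator myocardin, which bind a promoter element called the CArG box, and Notch3 signalling helps to keep arterial smooth muscle in its mature state. After injury smooth muscle in other vessels is known to lose contractile proteins and to make matrix. Pericytes, the mural cells of capillaries, share many of these genes.

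The library after ligation held 4292 barcodes with 18028737 UMIs, and that of undamaged hearts 2853 barcodes with 9885698 UMIs. Smooth muscle was 3.85% of the kept cells after ligation (exact binomial 95% interval 3.29 to 4.47) and 3.41% in undamaged hearts (2.77 to 4.15), a ratio of 1.13 (0.871 to 1.47). With a limit of 5% mitochondrial UMIs 48 cells were left after ligation and 44 in undamaged hearts, and the ratio of the shares was 0.783. These cells had a median of 2758.5 UMIs and 1255.5 genes after ligation, and of 2541 UMIs and 1201 genes in undamaged hearts. Their median mitochondrial share was 5.93% after ligation, against 3.29% in the other kept cells, and 5.29% in undamaged hearts, against 2.90%. The libraries shared 8 cell barcodes, 0 of them of smooth muscle cells. Of the other kept cells, 712 after ligation and 195 in undamaged hearts were pericytes by a marker rule, and 3130 after ligation and 2406 in undamaged hearts were fibroblasts.

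Markers outside the rule were those of smooth muscle. Summed over all smooth muscle cells of a library and scaled to the class total as CPM (counts per 1000000 UMIs), Des, the intermediate filament desmin, was at 1173 CPM after ligation and 1017 CPM in undamaged hearts. Pcp4l1, a small protein related to the calmodulin-binding Pcp4, was at 830 CPM after ligation and 900 CPM in undamaged hearts, and had a UMI in 89.0% of the smooth muscle cells after ligation and 87.4% in undamaged hearts. In fibroblasts, which should lack it, 1.15% of the cells had a UMI after ligation, at a median depth of 4041.5 UMIs, and 0.582% in undamaged hearts, at 3662.5 UMIs. Of the rule's own genes, Myh11, the smooth muscle myosin heavy chain (chr16:14194535-14291372, minus strand, GENCODE vM21, GRCm38), was at 1309 CPM in smooth muscle after ligation and 1682 CPM in undamaged hearts. Acta2, smooth muscle actin, was at 11597 CPM after ligation and 10704 CPM in undamaged hearts. Cnn1, calponin, was close to absent, with 6 UMIs after ligation and 1 in undamaged hearts, so for most cells the rule asked for 3 of the other 4 genes.

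The boundary with pericytes was not sharp. Rgs5, a regulator of G protein signalling often used as a pericyte marker, was at 11215 CPM in smooth muscle and 11799 CPM in pericytes after ligation. In undamaged hearts it was at 14960 CPM in smooth muscle and 11668 CPM in pericytes. Kcnj8, a subunit of the pericytes' potassium channel, was at 26.7 CPM in smooth muscle and 3269 CPM in pericytes after ligation, and at 12.6 and 3025 CPM in these classes in undamaged hearts. Rgs5 was thus high in both classes. Kcnj8 is among the genes by which both classes were chosen, so its difference was largely set by that choice. Just inside the limit stood 84 cells after ligation and 56 in undamaged hearts with 1 pericyte gene. Just outside stood 55 cells after ligation with 2 pericyte genes, which had Myh11 at 900 CPM and Rgs5 at 16309 CPM, and 22 such cells in undamaged hearts, with Myh11 at 1388 CPM and Rgs5 at 18474 CPM. On the contractile side, 47 members after ligation and 27 in undamaged hearts had the minimum of 3 genes. Cells with only 2 stayed outside, 9 after ligation with Mylk, myosin light chain kinase, at 286 CPM, and 6 in undamaged hearts with Mylk at 67.7 CPM.

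Markers of cells other than pericytes were low, apart from Fabp4 in both libraries and fibroblast markers after ligation. The 9 pericyte markers, the rule's 4 among them, summed to 16398 CPM in smooth muscle after ligation and 19709 CPM in undamaged hearts. Pericytes held 27523 CPM of them after ligation and 27484 CPM in undamaged hearts. Cardiomyocyte markers summed to 118 CPM in smooth muscle after ligation and 176 CPM in undamaged hearts. The 9 fibroblast markers summed to 3924 CPM in smooth muscle after ligation and 1686 CPM in undamaged hearts, with Pdgfra at 0 by rule. The fibroblasts themselves held 43121 CPM of them after ligation and 84991 CPM in undamaged hearts. Lymphocyte, neutrophil, epicardial and erythroid markers had no UMI in smooth muscle of either library. Macrophage markers had 5 UMIs after ligation and 6 in undamaged hearts, with Ptprc, C1qa and Adgre1 at 0. Of the 9 endothelial markers Cdh5, Kdr, Tie1, Emcn and Flt1 were at 0 in both, and 914 of the 918 UMIs after ligation and 340 of the 341 in undamaged hearts were Fabp4, a fatty acid carrier. Fabp4 was also at 1121 CPM in pericytes after ligation and 1294 CPM in undamaged hearts.

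Hic1 itself, the transcriptional repressor whose gene drives the Cre, was hardly seen in these cells. It had 4 UMIs after ligation, in 2.44% of the smooth muscle cells, and 1 in undamaged hearts, in 1.05%. Pericytes held 61.1 CPM after ligation and 66.6 CPM in undamaged hearts, and fibroblasts 32.5 CPM after ligation and 20.6 CPM in undamaged hearts. The tdTomato transcript was at 2138 CPM in smooth muscle after ligation, with a UMI in 97.0% of the cells, and at 1766 CPM in undamaged hearts, in 94.7%. Pericytes held 2298 CPM of it after ligation and 1525 CPM in undamaged hearts, and fibroblasts 1869 CPM after ligation and 1284 CPM in undamaged hearts. All cells were sorted for this label, so its presence in every class was set by the sort.

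**Figure D1:**
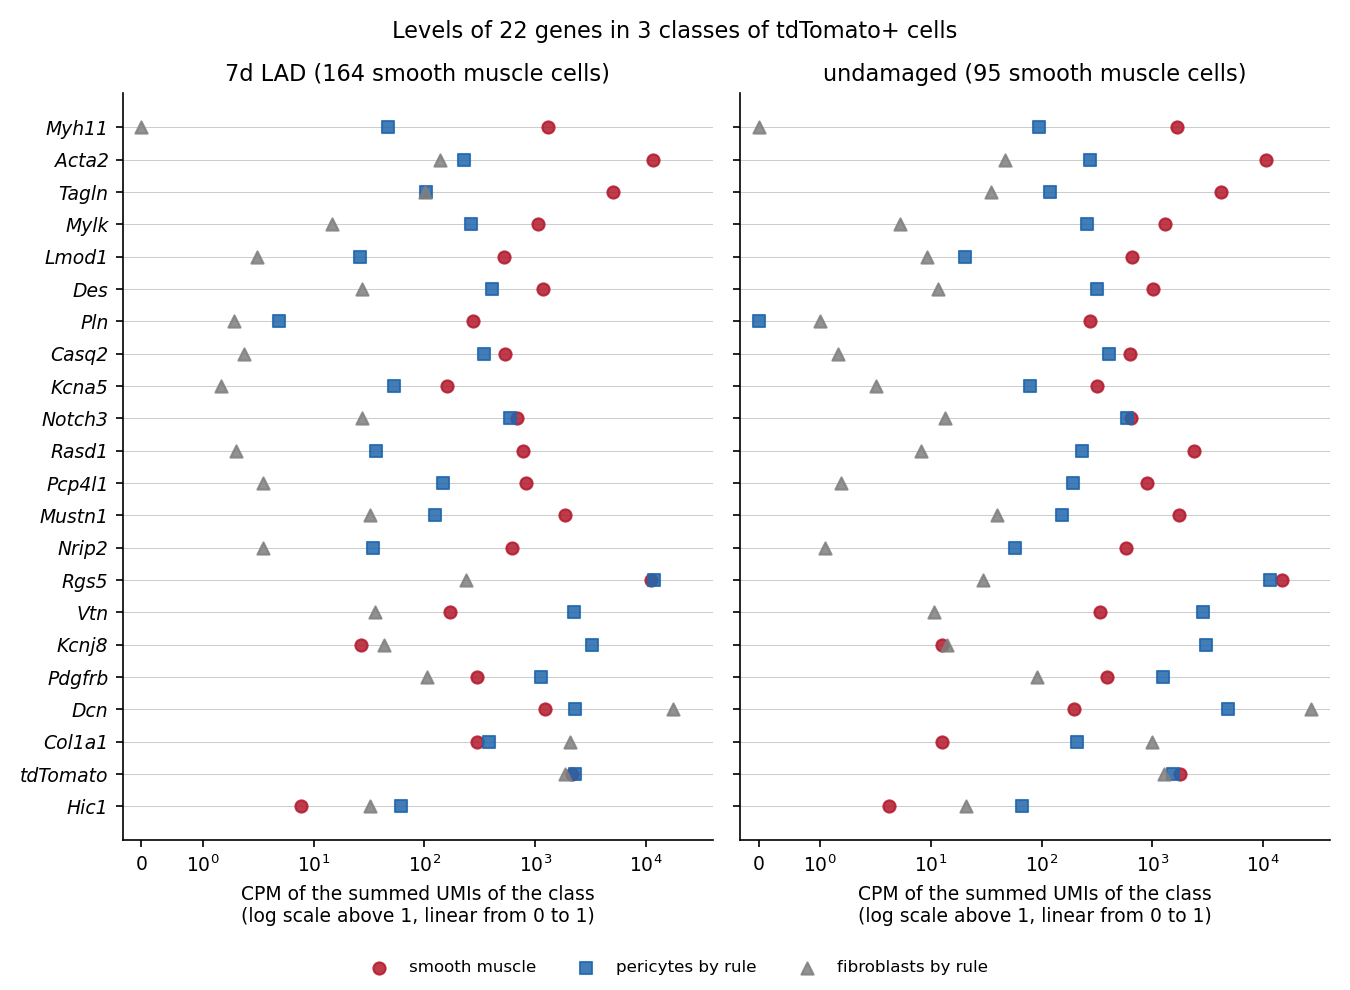
Level of 22 genes in CPM (log scale above 1) in smooth muscle (circles), pericytes (squares) and fibroblasts (triangles), after ligation on the left and in undamaged hearts on the right. Myh11 reached 1309 CPM after ligation and 1682 CPM in undamaged hearts in smooth muscle and was 0 in fibroblasts by rule, while Rgs5 and Notch3 overlapped between smooth muscle and pericytes.

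Against all other kept cells of their own library, most of them fibroblasts, Pln, Rasd1 and Olfr78 were among the 20 genes with the highest ratio in smooth muscle. Of 2250 genes measured, 380 (16.9%) were over 2-fold higher in smooth muscle in both libraries and 277 (12.3%) were over 2-fold lower. Marker genes chose the cells, so nothing is read from these counts. Pln, phospholamban (chr10:53337667-53345987, plus strand), which restrains the calcium pump of the sarcoplasmic reticulum, was at 277 CPM in smooth muscle after ligation, 83.2-fold above the other cells, and at 272 CPM in undamaged hearts, 200.5-fold above. It had a UMI in 38.4% of the smooth muscle cells and 0.863% of the fibroblasts after ligation, and in 33.7% and 0.333% of these classes in undamaged hearts. Casq2, calsequestrin, the calcium store of the same organelle, was at 532 CPM after ligation and 628 CPM in undamaged hearts, but only 1.56-fold and 1.54-fold above the pericytes of the same libraries. Kcna5, a voltage-gated potassium channel that opposes contraction, was 15.8-fold above the other cells after ligation and 38.1-fold in undamaged hearts.

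Several of the 20 genes with the highest ratio are not genes of the contractile apparatus. Rasd1, a small GTPase induced by glucocorticoids, was 43.7-fold above the other cells after ligation and 64.1-fold in undamaged hearts. Against pericytes alone Rasd1 was 21.3-fold above after ligation and 10.3-fold in undamaged hearts. The small GTPase Rasl11a was at 2220 CPM in smooth muscle after ligation, 21.8-fold above, and at 2322 CPM in undamaged hearts, 33.8-fold above. Nrip2, a partner of nuclear receptors, was 27.2-fold above after ligation and 54.1-fold in undamaged hearts. For Mustn1, a small nuclear protein of muscle and skeletal tissue, the ratio was 24.2 after ligation and 26.7 in undamaged hearts. Olfr78, an olfactory receptor known from mouse vascular smooth muscle, was 47.4-fold above after ligation and 68.3-fold in undamaged hearts. It had a UMI in 33.5% of the smooth muscle cells and 0.128% of the fibroblasts after ligation, and in 36.8% and 0.0831% of these classes in undamaged hearts. Gpr20, an orphan G protein-coupled receptor, was at 85.8 CPM after ligation and 134 CPM in undamaged hearts, and Myom1, a myosin-binding protein of striated muscle, at 72.5 CPM after ligation and 58.6 CPM in undamaged hearts.

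Of the gene lists, the 10 measured of 16 arterial genes were all over 2-fold higher in smooth muscle than in the other cells in both libraries, where 16.9% of all genes were. So were 18 of 20 contractile genes outside the rule, 8 of 8 vasoactive receptor and cyclic nucleotide genes, 6 of 7 ion channel and calcium genes, and 4 of 5 Notch genes. The 5 pericyte markers outside the rule were over 2-fold higher too, so these ratios do not separate smooth muscle from pericytes. Notch3, the receptor, was at 681 CPM in smooth muscle and 595 CPM in pericytes after ligation, and at 640 and 590 CPM in these classes in undamaged hearts. In the other direction, 13 of 14 elastic and fibrillar matrix genes were over 2-fold lower in smooth muscle in both. So were 8 of 11 basement membrane genes, and 12.3% of all genes. A gene was measured if it had enough UMIs in smooth muscle or a high enough level in the other cells. All 10 arterial genes had enough UMIs in smooth muscle. Of the elastic and fibrillar genes 8 did, and of the basement membrane genes 8. The rest of these matrix genes entered only by their level in the other cells. The counts in either direction were thus partly set by how genes entered. Eln, elastin, was at 74.4 CPM in smooth muscle and 458 CPM in fibroblasts after ligation, and at 41.8 and 390 CPM in these classes in undamaged hearts. The lowest ratios were those of genes of fibroblast states, among them Pi16, Dpt, Vcan (versican) and Mmp2 (a gelatinase). Myocd, myocardin, had 17 UMIs in smooth muscle of each library, too few for the comparison.

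The promoter of Myl9, the regulatory light chain of smooth muscle myosin, is shown because it holds the element by which contractile genes are known to be driven. Myl9 was at 4859 CPM in smooth muscle after ligation and 3419 CPM in undamaged hearts, and was chosen after its values were seen. The line gives the 250 bases before its start site (RefSeq, GRCm38.p6, chr2:156775214-156775463, plus strand), 5′ to 3′, with the 1 CArG box in capitals.
Myl9: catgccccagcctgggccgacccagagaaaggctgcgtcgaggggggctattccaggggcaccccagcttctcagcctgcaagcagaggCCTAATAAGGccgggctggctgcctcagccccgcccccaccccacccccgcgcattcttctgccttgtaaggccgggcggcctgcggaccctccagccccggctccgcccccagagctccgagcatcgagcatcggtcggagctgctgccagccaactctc
The CArG box (CC, 6 bases of A or T, GG) was searched on both strands in the 250 bases before 32851 start sites, and 1.47% of these windows held it. Of the 25 contractile genes in the RefSeq table, 5 held it, namely Cnn2, Ldb3, Myl6, Myl9 and Vcl. A gene counted if any of its windows held the box, so this count is not on a like footing with the share of windows.

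Among 22 genes followed cell by cell, the metallothionein Mt1, which binds zinc and copper, varied more over cells than contractile genes of a like level. The spread over cells was taken as the variance of a gene's UMIs over that which Poisson sampling at each cell's depth gives. This measure grows with the level of a gene, so genes are set side by side only at a like CPM. After ligation it was 14.94 for Mt1, at 1055 CPM, against 1.42 for Mylk, at 1059 CPM, and 1.42 for Des, at 1173 CPM. In undamaged hearts it was 14.98 for Mt1, at 3323 CPM, against 2.93 for Myl9, at 3419 CPM. For Rasl11a it was 15.9 after ligation and 8.35 in undamaged hearts. Among the more abundant genes it was 9.53 after ligation and 4.87 in undamaged hearts for Acta2, and 9.86 after ligation and 6.15 in undamaged hearts for Rgs5. The Rasl11a level of a cell had a median of 1061 CPM and a maximum of 16052 CPM after ligation, and a median of 942 CPM and a maximum of 10518 CPM in undamaged hearts. Mylk and Acta2 are genes of the cell rule, so the choice of cells bears on their spread. All members entered the spread values. The fibroblast-rich members described below held 131 of the 553 Mt1 UMIs after ligation and 10 of the 794 in undamaged hearts.

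Within each library Acta2 went with Tagln and Myl9 across cells, and less with Myh11. Leaving out the fibroblast-rich members described below, Spearman's rank correlation between the CPM of Acta2 and of Tagln, the actin-binding transgelin, was 0.559 over 155 cells after ligation and 0.576 over 94 cells in undamaged hearts. For Acta2 and Myl9 it was 0.603 after ligation and 0.548 in undamaged hearts, and for Acta2 and Myh11 0.184 after ligation and 0.176 in undamaged hearts. With Rgs5 the values were -0.264 after ligation and -0.295 in undamaged hearts for Acta2, and -0.0605 after ligation and -0.137 in undamaged hearts for Myh11. For Rasd1 and the immediate early gene Fosb it was 0.350 after ligation and 0.363 in undamaged hearts. Cells of 1 library share their hearts, their dissociation and their depth, so these are descriptions with no p. Myh11 had 686 UMIs over the 164 members after ligation, against 6079 for Acta2, 2657 for Tagln and 2547 for Myl9. Every member had a UMI of Myh11 by rule. The correlation of Myh11 with Acta2 is thus not on a like footing with those of Tagln and Myl9.

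Among cells that passed the cell rule, the measured contractile genes were within 2-fold of undamaged hearts after ligation. The rule itself asked for UMIs of contractile genes, so a cell that had lost them would have been left out. Whether such cells were present after ligation was not tested. Of 2072 genes whose 2 sums reached 50 UMIs together, 77 (3.72%) were over 2-fold higher after ligation and 85 (4.1%) over 2-fold lower, with a median log2 ratio of -0.00. These ratios are of CPM with 1 UMI added to each sum. Higher genes were 47.5% of those past 2-fold, or 58.3% (95 higher, 68 lower) when CPM was scaled to the UMIs other than mitochondrial, ribosomal and rule genes. None of the 20 measured contractile genes outside the rule was past 2-fold, and their median log2 ratio was 0.10. Among the rule's genes the log2 ratio was 0.12 for Acta2, 0.28 for Tagln, -0.30 for Mylk and -0.36 for Myh11. At the upper edge of the list stood Ppp1r14a, an inhibitor of myosin phosphatase, with 515 CPM after ligation and 322 CPM in undamaged hearts (log2 ratio 0.66, 1.24-fold to 2.09-fold higher). Tpm2, a tropomyosin, and Myl9 each had a log2 ratio of 0.51. Both were chosen after their values were seen. A ratio above 0 was found in 12 of the 20 genes. Of the others, Actn1, an alpha-actinin, had 112 UMIs after ligation and 92 in undamaged hearts (log2 ratio -0.85). The lowest log2 ratio in the list was -0.96, just inside 2-fold.

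Of 16 ion channel and calcium genes outside the rule 7 could be measured, with a median log2 ratio of -0.01 and none past 2-fold. Kcna5 was at 158 CPM in smooth muscle after ligation and 314 CPM in undamaged hearts, just inside 2-fold (log2 ratio -0.99), and had a UMI in 38.4% of the cells after ligation and 53.7% in undamaged hearts. Casq2 had a log2 ratio of -0.24 and Pln of 0.01. Of the 8 measured vasoactive and cyclic nucleotide genes, 1 was past 2-fold lower and the median log2 ratio was -0.46. That gene was Prkg1, the cyclic GMP-dependent kinase, with 29 UMIs (55.3 CPM) after ligation and 28 UMIs (117 CPM) in undamaged hearts (log2 ratio -1.08, and -0.96 without the fibroblast-rich members). Gucy1a3, a subunit of the nitric oxide receptor, was at 1143 CPM after ligation and 1603 CPM in undamaged hearts (log2 ratio -0.49). Its partner Gucy1b3 was at 759 CPM after ligation and 1113 CPM in undamaged hearts (log2 ratio -0.55). Among 12 regulators of transcription, Tbx2, a T-box repressor, was higher, with 153 CPM and a UMI in 35.98% of the cells after ligation, and 71.1 CPM and 16.8% of the cells in undamaged hearts (log2 ratio 1.04). Mef2a, a muscle transcription factor, was lower, with 128 CPM after ligation and 264 CPM in undamaged hearts (log2 ratio -1.05).

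Among the 15 genes with the lowest ratio after ligation was Hes1 (chr16:30064384-30067796, plus strand), a Notch target and repressor of transcription. Smooth muscle held 16 UMIs of Hes1 (30.5 CPM) in 9.15% of the cells after ligation, and 61 UMIs (255 CPM) in 34.7% of the cells in undamaged hearts. This was 8.0-fold lower (4.76 to 15.5). The receptor Notch3 had a log2 ratio of 0.08, the ligand Jag1 of 0.21, and Heyl, a further Notch target, of 0.36. Hes1 was lower in the other classes too, with a log2 ratio of -1.76 in pericytes and -1.46 in fibroblasts, against -3.00 in smooth muscle. A difference between these classes was not tested.

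Rasd1 (chr11:59963181-59964944, minus strand), a marker of these cells, was lower in smooth muscle after ligation, at 776 CPM against 2389 CPM in undamaged hearts (3.08-fold lower, 2.71 to 3.50). It had a UMI in 62.2% (54.3 to 69.6) of the smooth muscle cells after ligation and 83.2% (74.1 to 90.1) in undamaged hearts. With every cell thinned to 1000 UMIs these shares were 41.7% after ligation and 71.4% in undamaged hearts. In fibroblasts the share of cells with a UMI was 0.671% after ligation and 2.20% in undamaged hearts. The median cell had 411 CPM after ligation and 1770 CPM in undamaged hearts. Pericytes had 36.4 CPM of Rasd1 after ligation and 232 CPM in undamaged hearts, and fibroblasts 2.00 CPM after ligation and 8.10 CPM in undamaged hearts, so it was lower after ligation in all 3 classes. The other arterial genes were nearer to their level in undamaged hearts, with Map3k7cl at a log2 ratio of -0.48 and Net1 at -0.47. Rasd1 was the 1 of 10 measured that was past 2-fold.

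Of the 17 immediate early genes, which respond quickly to outside signals, all were measured. Nr4a1 and Fosb were over 2-fold lower in smooth muscle after ligation, where 4.1% of all genes were, and none was over 2-fold higher. A ratio above 0 was found in 3, and the median log2 ratio was -0.40. Nr4a2, an orphan nuclear receptor outside that list and among the 15 genes with the lowest ratio, was at 233 CPM after ligation and 716 CPM in undamaged hearts, with a UMI in 33.5% of the cells after ligation and 58.9% in undamaged hearts (log2 ratio -1.62). It was 17.4-fold above the pericytes after ligation and 35.3-fold in undamaged hearts. Its relative Nr4a1 was at 651 CPM after ligation and 1310 CPM in undamaged hearts (log2 ratio -1.01). Fosb, a part of the AP-1 factor, was at 813 CPM after ligation and 1921 CPM in undamaged hearts (log2 ratio -1.24). The list of immediate early genes had a median of -0.51 in pericytes and 0.44 in fibroblasts, so its median was below 0 in smooth muscle and pericytes and above 0 in fibroblasts.

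The promoters of Nr4a2 and Nr4a1, chosen after the values were seen, are shown because both genes are known to be switched on through the core of the cyclic AMP response element, TGACG. Each line gives the 250 bases before the start site (RefSeq, GRCm38.p6), 5′ to 3′ on the gene's strand, with TGACG on either strand (CGTCA on the other) in capitals. Nr4a2 lies at chr2:57124004-57124253 on the minus strand and Nr4a1 at chr15:101266596-101266845 on the plus strand.
Nr4a2: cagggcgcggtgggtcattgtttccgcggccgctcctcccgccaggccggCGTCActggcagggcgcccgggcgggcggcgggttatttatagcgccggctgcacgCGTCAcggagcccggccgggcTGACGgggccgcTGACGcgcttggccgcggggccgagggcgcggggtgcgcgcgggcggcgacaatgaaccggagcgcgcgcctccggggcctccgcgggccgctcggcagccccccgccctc
Nr4a1: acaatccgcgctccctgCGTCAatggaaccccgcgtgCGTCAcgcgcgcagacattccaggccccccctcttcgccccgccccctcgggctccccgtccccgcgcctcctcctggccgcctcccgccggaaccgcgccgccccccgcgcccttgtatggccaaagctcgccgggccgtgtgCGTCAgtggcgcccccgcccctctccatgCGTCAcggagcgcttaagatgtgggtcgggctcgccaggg
Each held 4 matches. Of all 32851 windows 17.8% held at least 1 match and 0.137% at least 4. Of the 15 immediate early genes in the table, 9 held the motif in any of their windows, a count not on a like footing with the share of windows. A match is no proof of a site in use.

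Further genes that were lower after ligation were single members of their lists or outside them. Of the 10 measured metallothionein and oxidative stress genes 1 was over 2-fold higher and 1 over 2-fold lower, and the median log2 ratio was 0.17. The lower gene was Mt1, at 1055 CPM in smooth muscle after ligation and 3323 CPM in undamaged hearts, with a UMI in 55.5% of the cells after ligation and 73.7% in undamaged hearts (log2 ratio -1.65), and log2 ratios of -0.20 in pericytes and -0.53 in fibroblasts. Ddit4, an inhibitor of the growth kinase mTORC1, was at 206 CPM after ligation and 644 CPM in undamaged hearts (log2 ratio -1.64), and was lower in pericytes (-1.71) and fibroblasts (-2.07) too. Crem, a cyclic AMP responsive factor, had 24 UMIs after ligation and 48 in undamaged hearts (log2 ratio -2.10). Sgk1, a salt- and steroid-induced kinase, had a log2 ratio of -1.61, the antiproliferative gene Tob2 of -1.79 and Adamts9, a versican-cleaving protease, of -1.72. Id1 and Id3, inhibitors of basic helix-loop-helix factors and targets of BMP signalling, stayed just inside 2-fold. Id1 was at 433 CPM after ligation and 862 CPM in undamaged hearts (log2 ratio -0.99), and Id3 at 2293 CPM after ligation and 4452 CPM in undamaged hearts (log2 ratio -0.96). Klf4, a factor known to repress contractile genes, was at 204 CPM after ligation and 381 CPM in undamaged hearts (log2 ratio -0.90).

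**Figure D2:**
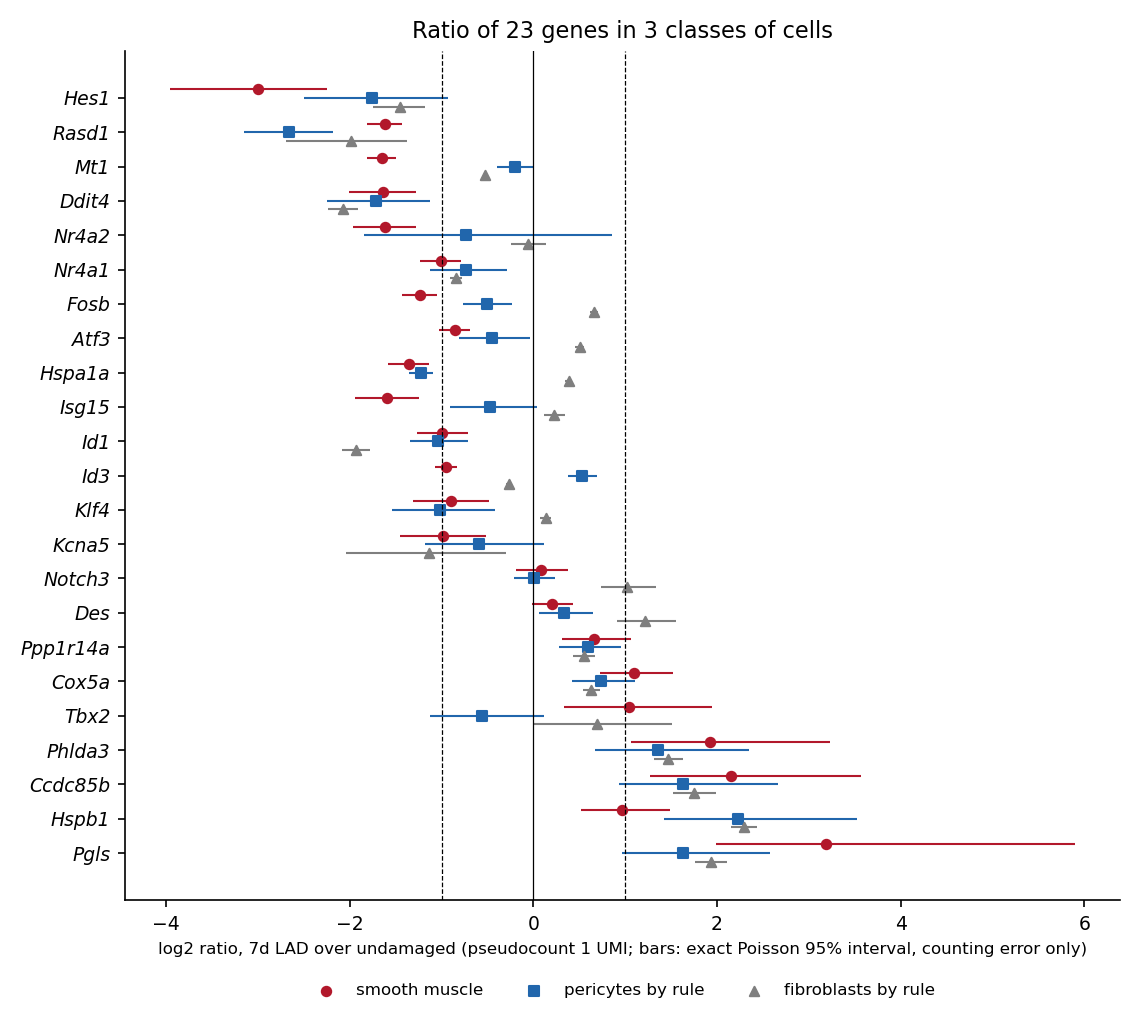
Log2 ratio of 7 days after ligation over undamaged hearts for 23 genes in smooth muscle (circles), pericytes (squares) and fibroblasts (triangles), with exact Poisson 95% intervals and dashed lines at 2-fold. Hes1 and Rasd1 were lower in all 3 classes, while Fosb was at -1.24 in smooth muscle and 0.66 in fibroblasts.

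Pgls, Ccdc85b, H2afj, Phlda3 and Chchd10 were over 2-fold higher in smooth muscle after ligation. Pgls, an enzyme of the pentose phosphate pathway, had 79 UMIs after ligation and 3 in undamaged hearts, in 31.7% of the cells after ligation and 3.16% in undamaged hearts (9.12-fold higher, 3.96 to 59.5). It was higher in pericytes and fibroblasts as well, at log2 ratios of 1.63 and 1.93. Ccdc85b had 87 UMIs after ligation and 8 in undamaged hearts (log2 ratio 2.16). The histone variant H2afj had 62 UMIs after ligation and 6 in undamaged hearts (log2 ratio 2.04), and Phlda3, a target of p53, 82 after ligation and 9 in undamaged hearts (log2 ratio 1.92). These 3 genes were over 2-fold higher in the other classes too. Chchd10, a protein of the mitochondrial intermembrane space, had 86 UMIs in 28.7% of the cells after ligation and 10 UMIs in 10.5% in undamaged hearts (log2 ratio 1.85). In fibroblasts it had 35 UMIs after ligation and 7 in undamaged hearts (log2 ratio 1.48), and pericytes held 16 UMIs after ligation and 3 in undamaged hearts, both under the minimum of 50. Cox5a, a subunit of cytochrome c oxidase, had 607 CPM after ligation and 280 CPM in undamaged hearts (log2 ratio 1.10). Of the 16 genes of the respiratory chain 14 had a ratio above 0, with a median log2 ratio of 0.17 and Cox5a the member past 2-fold.

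Il6 and Tnfaip6, both secreted, were carried by few cells. Il6, an inflammatory cytokine, had 143 UMIs in 11.6% of the smooth muscle cells after ligation and 21 UMIs in 9.47% in undamaged hearts (log2 ratio 1.58), and 1 cell held 47 of the 143. Tnfaip6, a hyaluronan-binding protein, had 82 UMIs after ligation and 9 in undamaged hearts (log2 ratio 1.92), and 1 cell held 34 of the 82. For Il6 the share of cells with a UMI differed less than the summed level.

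Matrix and modulation genes had the highest medians of the 19 lists, and these rested on few cells. Over 2-fold higher after ligation, where 3.72% of all genes were, stood 5 of the 8 measured elastic and fibrillar matrix genes (median log2 ratio 1.33), 8 of 10 genes of smooth muscle modulation (median 2.57) and 3 of 8 basement membrane genes (median 0.92). Col1a1, the chief chain of type I collagen, had 155 UMIs in smooth muscle after ligation and 3 in undamaged hearts. Fn1, fibronectin, had 104 UMIs after ligation and 2 in undamaged hearts, and Dcn, the proteoglycan decorin, 640 after ligation and 47 in undamaged hearts. In every one of these the sum after ligation was the higher. In 9 of the 164 cells after ligation and 1 of the 95 in undamaged hearts at least 4 of 8 fibroblast markers (Dcn, Lum, Dpt, Col1a1, Gsn, Smoc2, Ogn, Tcf21) had a UMI. These fibroblast-rich members held 12.3% of all smooth muscle UMIs after ligation and 0.855% in undamaged hearts. After ligation they held 146 of the 155 Col1a1 UMIs, 549 of the 640 of Dcn and 165 of the 207 of Col3a1, type III collagen.

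A member of 18403 UMIs, the highest count among the 259 smooth muscle cells, alone held 137 of the Col1a1 UMIs, 77 of the Fn1 UMIs and 100 of the 130 of Postn, periostin, a matricellular protein of injured tissue. The 9 cells after ligation had between 2840 and 18403 UMIs, Acta2 at 7 to 134 UMIs and Myh11 at 1 to 11. The cell rule asked for Myh11 and for further contractile genes in every member. The presence of smooth muscle genes in each was thus set by that rule. The 9 cells held 5.77% of the Acta2 and 5.98% of the Myh11 UMIs, below their 12.3% of all UMIs. Doublets, droplets with more than 1 cell, were neither called nor removed, and whether these cells were doublets was not tested.

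**Figure D3:**
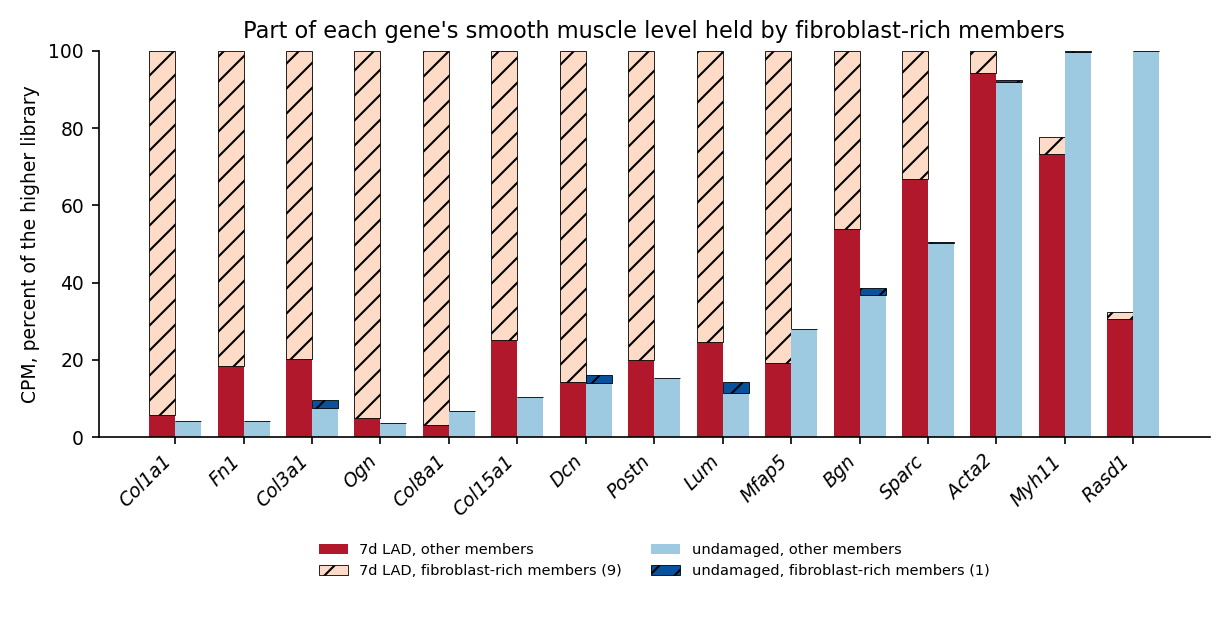
Level of 15 genes in smooth muscle after ligation (left bar) and in undamaged hearts (right bar), as a percent of the library with the higher CPM, with the part held by fibroblast-rich members (9 cells after ligation and 1 in undamaged hearts) hatched. These members held 94.2% of the Col1a1 UMIs after ligation but 5.77% of the Acta2 UMIs. Col1a1, Dcn, Lum and Ogn were among the markers that chose these members, so their parts are partly set by that choice.

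Without the fibroblast-rich members, 155 cells after ligation and 94 in undamaged hearts remained, and 48 of 1878 genes (2.56%) were over 2-fold higher and 80 (4.26%) over 2-fold lower. Of the 77 higher genes 41 (53.2%) were kept, and they were 85.4% of the 48. Of the 85 lower genes 69 (81.2%) were kept. The log2 ratio of Col1a1 was then 0.37, against 4.15 with all cells. It was 0.18 for Dcn (2.61 with all cells), 0.48 for Postn (2.58), 0.04 for Ogn, the proteoglycan osteoglycin (3.84), and -0.96 for Col8a1, a short-chain collagen (3.35). Of these 5 genes Dcn alone still reached 50 UMIs. Over the same genes, the median of the elastic and fibrillar list was 0.25, that of the modulation list 0.23 and that of basement membrane 0.52. Among cells with none of the 4 pericyte genes the median of the modulation list was -0.063 and the log2 ratio of Postn -0.57.

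Without those members 3 of the elastic and fibrillar genes, 4 of the modulation genes and 6 of the basement membrane genes still reached 50 UMIs, and 1 of them, Col4a1, was over 2-fold higher. Col4a1, a chain of the basement membrane's type IV collagen, had 92 UMIs after ligation and 10 in undamaged hearts, with 33 of the 92 and none of the 10 in fibroblast-rich members, and its log2 ratio was 1.49 without them (1.95 with all cells). Col3a1, Fn1 and Col15a1, a collagen of the basement membrane zone, then fell short of the minimum of 50 UMIs. The log2 ratio was 1.47 for Col3a1 (3.25 with all cells), 1.78 for Fn1 (4.00) and 1.13 for Col15a1 (2.89). Sparc, a collagen-binding glycoprotein, with 1283 UMIs after ligation and 296 in undamaged hearts, was at 0.58 (0.98). After ligation 85 of the 104 UMIs of Fn1 and 48 of the 64 of Col15a1 were in fibroblast-rich members, and undamaged hearts held 2 of Fn1 and 3 of Col15a1.

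**Figure D4:**
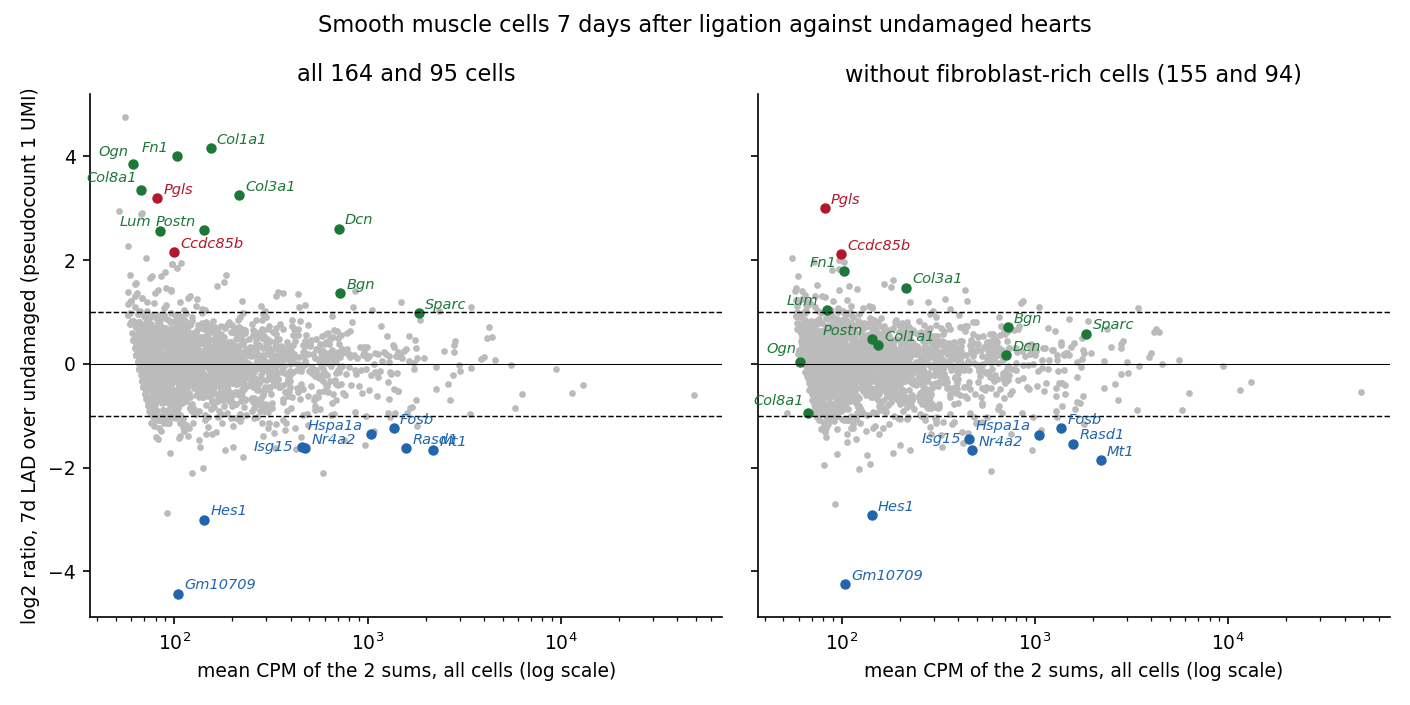
Log2 ratio of 7 days after ligation over undamaged hearts against the mean CPM of the 2 smooth muscle sums (log scale), each point a gene, with all 164 and 95 cells on the left and without fibroblast-rich cells on the right. Col1a1, a marker by which the cells left out were chosen, lies at 4.15 on the left and 0.37 on the right. Hes1 lies at -3.00 and -2.91.

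Hes1, Rasd1, Nr4a2, Mt1 and Fosb depended little on those members. The log2 ratio of Hes1 was -2.91 (-3.00 with all cells), that of Rasd1 -1.53 (-1.62), of Nr4a2 -1.67 (-1.62), of Mt1 -1.85 (-1.65) and of Fosb -1.24 in both. Among the other lists, 6 measured interferon genes had a median log2 ratio of -0.12, with Isg15, a ubiquitin-like protein induced by interferon, at 227 CPM after ligation and 686 CPM in undamaged hearts the 1 past 2-fold (log2 ratio -1.59). Of 10 heat shock genes Hspa1a, an inducible HSP70, was lower, at 588 CPM after ligation and 1506 CPM in undamaged hearts (log2 ratio -1.36). Hspe1, the mitochondrial cochaperone, was higher, at 399 CPM after ligation and 192 CPM in undamaged hearts (log2 ratio 1.03). Of 7 genes of TGF-beta, BMP and PDGF signalling none was past 2-fold, and Pdgfrb, the receptor of mural cells for PDGF, was at 298 CPM after ligation and 393 CPM in undamaged hearts. Only 2 of 14 cell cycle genes had enough UMIs.

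**Figure D5:**
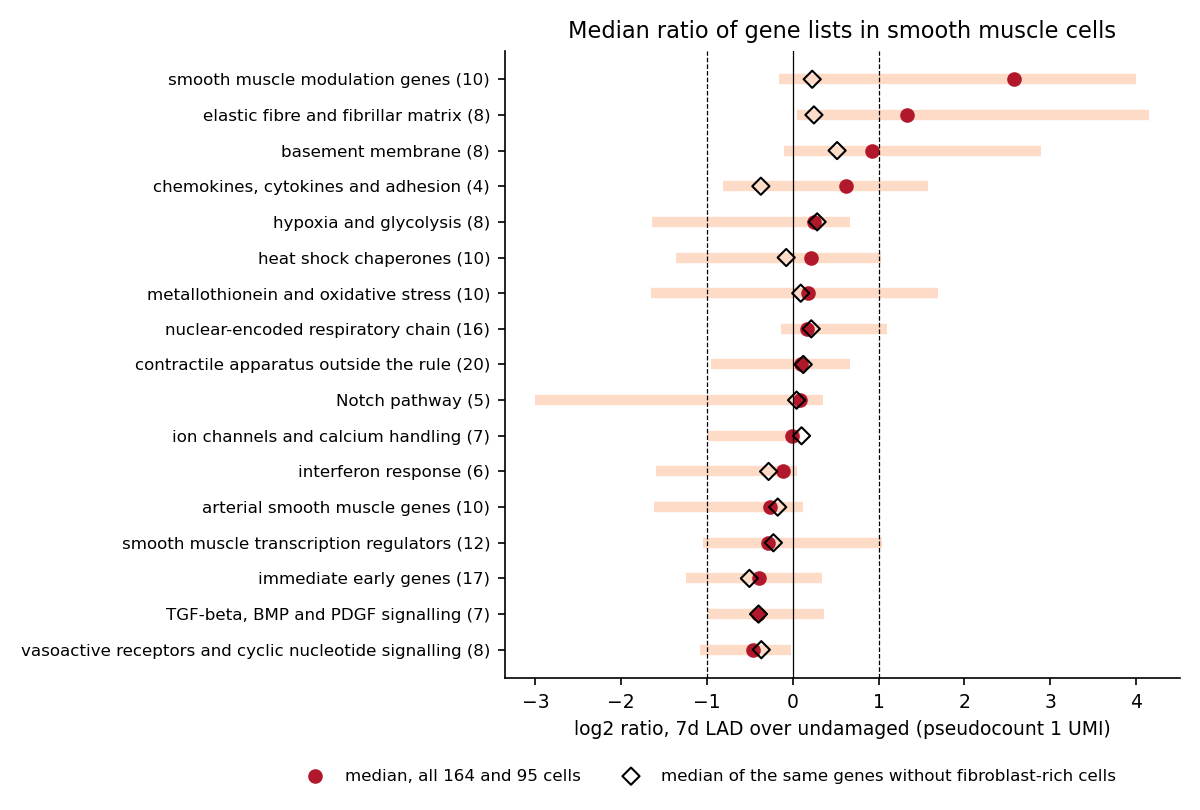
Median log2 ratio of 7 days after ligation over undamaged hearts for gene lists with at least 4 measured genes in smooth muscle (circles, with a bar from the lowest to the highest gene), and the same genes without fibroblast-rich cells (diamonds). The modulation list lies at 2.57 with all cells and 0.23 without them, while the contractile list lies at 0.10 and 0.12.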

How the data were processed

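The authors deposited UMI counts per gene and cell barcode. Per the labels' protocols these were made with the cellranger pipeline on a modified mm10 genome, after Chromium 3′ v2 capture and sequencing on a NextSeq 500. Per the submitters' processing notes Cell Ranger and Seurat 2.1 were used, with no role given. The deposited counts are whole numbers and not normalised.

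From them, UMIs were summed per class and expressed as CPM. Ratios of ligated over undamaged hearts had a pseudocount of 1 UMI, for genes whose 2 sums reached 50 UMIs together; counts leave out reporters, Xist, Y-linked, ribosomal, mitochondrial and rule genes. Ratios of smooth muscle over other cells had no pseudocount, and also took genes with at least 100 CPM in the other cells of each library. Pericytes by rule had at least 2 of the 4 pericyte genes, fewer than 3 of the 5 contractile genes and no Pdgfra UMI; fibroblasts had at least 4 of 9 fibroblast markers and no Myh11 UMI. Ratios carry exact Poisson and shares Clopper-Pearson 95% intervals. They cover counting error only. Each group is 1 library, so no test was made. Gene coordinates are from GENCODE vM21 (GRCm38). Doublets were not called. The code was tested on simulated data (pandas 2.3.3, scipy 1.17.1 and numpy 2.4.6 under Python 3.11.15; matplotlib 3.10.9 for figures).

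Genes named are the rule's genes and markers, the 20 highest and 10 lowest against other cells, the 15 highest and 15 lowest after ligation, up to 4 members of each of 19 lists with the largest ratio, and a few always given. Others are named as chosen later. The cells, lists and genes were chosen with earlier results of these data known.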

Additional observations from a re-analysis of the deposited data

Results flagged for a closer look

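Among the genes named for their change after ligation, as list members or as always given, 7 were past 2-fold in smooth muscle and pointed the other way in fibroblasts of the same libraries, with a counting interval of the ratio that left out 1 in both classes. Neat1, a long noncoding RNA that the naming rule did not choose, was at -1.57 in smooth muscle and 0.59 in fibroblasts. None of these differences was tested, since each group is 1 library. Dcn was at 2.61 in smooth muscle, -0.61 in fibroblasts and -1.09 in pericytes, and at 0.18 in smooth muscle without the fibroblast-rich members. Lum, the proteoglycan lumican, was at 2.57, -0.41 and -0.99 in these classes, and at 1.04 without those members. Ogn was at 3.84, -0.34 and -0.74, and at 0.04 without them. Col15a1 was at 2.89, -0.14 and -0.26, and at 1.13 without them. Dcn, Lum and Ogn were among the markers that chose those members, and Col15a1 was not. For Fosb, Hspa1a and Isg15 leaving out those members moved the smooth muscle value by less than 0.2. Fosb was at -1.24 in smooth muscle, 0.66 in fibroblasts and -0.51 in pericytes. Hspa1a was at -1.36, 0.38 and -1.23, and Isg15 at -1.59, 0.23 and -0.47.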

How the results depend on the processing

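No paired analysis was possible because each group is 1 library of pooled hearts; leaving out a replicate could not be done for the same reason. Of 47 named genes past 2-fold after ligation, of 93 followed over 15 alternatives, 4 changed direction. Mfap5, a microfibril protein, was at -0.19 with at least 4 contractile genes required and -0.43 without fibroblast-rich cells, where Col8a1 was at -0.96. With none of the 4 pericyte genes allowed, the modulation median was -0.063, Postn -0.57 and Stmn1, a tubulin regulator, -2.31. The share ratio (1.13) was 0.783 at a 5% mitochondrial limit and between 1.03 and 1.37 under the other alternatives.

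The counts of 77 higher and 85 lower genes were 24 and 43 with no pericyte gene allowed, 182 and 128 with no limit on them, 278 and 250 at a minimum of 20 UMIs, 32 and 42 at 100 UMIs, and 968 and 2067 with no minimum, which moved the median of all genes to -0.13. Without fibroblast-rich cells 48 genes were higher. The 4 lists with a median beyond 0.5 became 7 at the 5% limit, 2 with 4 contractile genes required and 2 with each cell weighted equally. The 47 named genes became 21 with no pericyte gene allowed and 24 at 100 UMIs. Against other cells, the 380 higher genes were 173 at the 5% limit, 225 with no pericyte gene allowed, 614 at 20 UMIs and 243 at 100. They were 199, with 164 lower, against pericytes, and 1042, with 1301 lower (277 before), with no minimum. The causes were not tested. The sums of 524206 UMIs after ligation and 238974 in undamaged hearts limit genes of low level, and animals cannot be told apart.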

Other observations

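Smooth muscle held transcripts of a few genes better known from other tissues. Tnnt2, cardiac troponin T, had 59 UMIs in 18.9% of the smooth muscle cells after ligation and 37 UMIs in 24.2% in undamaged hearts. This was 14.6-fold above the other kept cells after ligation and 19.3-fold in undamaged hearts. The 9 cardiomyocyte markers, Tnnt2 among them, had 62 UMIs together in smooth muscle after ligation and 42 in undamaged hearts. Of these markers Myh6, Tnni3, Ttn and Nppa were at 0 in both libraries. Actc1 had UMIs in both, Myl2 and Myl3 only after ligation and Mb only in undamaged hearts. Perp, a desmosomal protein of epithelia, was at 172 CPM after ligation, 31.5-fold above the other cells, and at 176 CPM in undamaged hearts, 27.2-fold above. Ctnna3, a catenin of cardiac cell junctions, was 29.7-fold above after ligation and 43.4-fold in undamaged hearts. For Cd93, a receptor of endothelial and myeloid cells, the ratio was 26.0 after ligation and 24.3 in undamaged hearts. Rbm24, a splicing factor of striated muscle, had 26 UMIs in smooth muscle after ligation and 29 in undamaged hearts, and 0 in pericytes and fibroblasts of either library.

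Some of the lowest ratios after ligation were those of transcripts with no known protein. Gm10709, a processed pseudogene whose reads may come from a near-identical gene, had 4 UMIs after ligation and 48 in undamaged hearts (log2 ratio -4.43). The long noncoding RNA Gm12840 was at 221 CPM after ligation and 958 CPM in undamaged hearts (log2 ratio -2.11), and AY036118 at 162 CPM after ligation and 502 CPM in undamaged hearts (log2 ratio -1.63). Gm10709, Gm12840 and AY036118 were lower after ligation in pericytes and fibroblasts too. For AY036118 the ratio was lower in both of those classes than in smooth muscle, and for Gm10709 and Gm12840 it was higher. A difference between the classes was not tested.

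The same rule passed 1 of 10838 kept Hic1-citrine+ cells of undamaged hearts and 2 of 12567 kept PDGFRa H2BGFP+ cells, and these held 5 to 6 of the 8 fibroblast markers.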
